A study of Mus musculus with 12 samples.

Results

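Oxidative phosphorylation genes encode the protein complexes of the inner mitochondrial membrane that pass electrons from NADH and succinate to oxygen and use the resulting proton gradient to make ATP. The genes described here were those whose symbol, on probe sets with a single symbol, starts with Ndufa, Ndufb, Ndufc, Ndufs or Ndufv (complex I), Uqcr (complex III), Cox4i, Cox5, Cox6, Cox7 or Cox8 (complex IV) or Atp5 (complex V), together with Sdha, Sdhb, Sdhc and Sdhd (complex II) and Cycs (cytochrome c). This rule named 91 genes, read by 183 probe sets, of 18193 named genes on the array, and the probe set of highest mean stood for each gene. Of the 91 genes, 88 passed the filter on low values, and Cox7b2, Cox8b and Ndufa4l2 did not. The 88 were 34 complex I subunits, 8 complex I assembly factors (the Ndufaf genes, which the letters of the rule include), 4 complex II, 8 complex III, 16 complex IV and 17 complex V genes and Cycs. Ndufa4, named for complex I, was placed with complex IV, of which it is now known to be a subunit.

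Complex I oxidises NADH, complex II oxidises succinate and is also an enzyme of the citric acid cycle, complex III passes the electrons to cytochrome c, complex IV reduces oxygen, and complex V is the ATP synthase. Subunits of these complexes other than those of complex II are encoded partly by the mitochondrial genome and partly by the nuclear genes described here. Dendritic cells stimulated through Toll-like receptors are known for a shift of their energy metabolism towards glycolysis, and succinate and complex I are known in activated myeloid cells for their link to reactive oxygen species and cytokine production. None of these activities was measured here, since the arrays report RNA alone.

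The cells were dendritic cells (DCs) of mouse spleen, enriched with beads against CD11c before flow sorting, with the DCs of 3 mice pooled for each array. They came from mice of the alymphoplasia (aly) strain, in which the kinase NIK (Map3k14) is mutated in all cells and lymph nodes are missing, or from heterozygous littermates, called WT here, which therefore carry 1 mutated copy. Mice were untreated or were injected intraperitoneally with 25 µg lipopolysaccharide (LPS, a ligand of Toll-like receptor 4) and 100 µg of an agonistic antibody to CD40, and DCs were taken 6 h later. Each of the 4 groups (WT untreated, WT treated, aly untreated, aly treated) had 3 arrays. The p-values therefore reflect variation among pools of DCs from 3 mice each. No age is stated in the labels.

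Values are the deposited signals, an intensity per probe set on a linear scale. Differences are on the scale log2(signal + 16), fitted by limma to all 12 arrays and printed as difference ± standard error, with n = 3 arrays a group. A gene is called, and said to rise or fall, at a Benjamini-Hochberg adjusted limma p under 0.05 over the 15019 genes tested. The added 16 understates the change of genes with low signals. In pooled sorted cells, fewer cells of a type and less RNA per cell cannot be told apart.

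Several features of the arrays differed between the groups before any gene of the chain was considered. The 3'/5' signal ratios of Actb and Gapdh, control probe sets that rise with RNA degradation and short amplification products, averaged 1.37 to 1.83 on the log2 scale over the 6 WT arrays, 2.17 to 3.11 over 5 aly arrays and 5.66 on aly treated replicate 1, whose median signal of 53.4 was also above the 21.5 to 39.1 of the other 11 arrays. The summed signal of 13 red pulp macrophage markers was 2575 to 18279 in untreated WT and 2606 to 16434 in treated WT DCs. In aly DCs it was 45620 to 73882 untreated and 31828 to 61001 treated. The lowest single values of the 13 were those of Cd163 in untreated (23.9) and treated WT DCs (1.8). In aly DCs they were those of Spic untreated (545.6) and Axl treated (104.1). Of 14 erythroid markers, 8 were measured. Their sums were 327.0 to 498.5 in untreated and 746 to 945 in treated WT DCs. In aly DCs they were 1315 to 3322 untreated and 1595.5 to 4859 treated. Single genes made up much of these sums. The highest single values were those of Car2 in untreated WT (281.7), treated WT (804.8) and untreated aly DCs (1765.6), and of Slc4a1 in treated aly DCs (3558.1). The 10 markers of DCs themselves were all measured. Their sums were 59125 to 68093 in untreated WT, 45335 to 53198 in treated WT and 70949 to 79759 in untreated aly DCs. In treated aly DCs they were 52612 to 108656, the highest being that of aly treated replicate 1. The highest single value among them was 48745 for H2-Aa in treated aly DCs. Between treated aly and treated WT DCs, 4 of the 10 were positive and 6 negative, with a median of -0.15. Of these 10, 1 was called lower in aly and 0 higher, against 2.64% and 2.72% of all genes tested. The 6 measured markers of CD8 alpha positive DCs fell from sums of 9654 to 15432 to 1611 to 4744 with treatment in WT DCs, each of the 6 being called lower. In aly DCs the sums of these 6 went from 15460 to 16598 untreated to 2488 to 10643 treated, with 0 of 6 called. Of 7 neutrophil markers 6 were measured, with sums of 53.5 to 2921 on 11 arrays and of 14839 on aly treated replicate 1. The part of RNA quality and of other cell types in the results below was not tested.

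The promoters of 4 genes on which the comparisons turn are shown first, chosen after the values were seen. Cox7a2l was called in both of the comparisons that gave calls, Ndufaf7 and Ndufa5 had the smallest p in each of them, and Atp5l had the most motif matches among the genes called. Its 2 matches were counted in a window that also took in the 50 bases after the start, and 1 of them lies within the bases shown. Each line gives the 250 bases before the most upstream RefSeq start, 5' to 3' on the gene's own strand, from assembly GRCm38.p6. Capitals mark matches to the motif letters of the factors NRF1 and GABP, described after the sequences, on either strand.
Cox7a2l, chr17:83514334-83514583, minus strand: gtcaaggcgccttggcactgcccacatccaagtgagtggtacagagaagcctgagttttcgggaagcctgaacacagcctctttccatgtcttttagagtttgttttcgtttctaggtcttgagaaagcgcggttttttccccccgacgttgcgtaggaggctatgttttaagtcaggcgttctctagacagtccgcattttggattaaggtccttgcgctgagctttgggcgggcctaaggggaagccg
Ndufaf7, chr17:78936885-78937134, plus strand: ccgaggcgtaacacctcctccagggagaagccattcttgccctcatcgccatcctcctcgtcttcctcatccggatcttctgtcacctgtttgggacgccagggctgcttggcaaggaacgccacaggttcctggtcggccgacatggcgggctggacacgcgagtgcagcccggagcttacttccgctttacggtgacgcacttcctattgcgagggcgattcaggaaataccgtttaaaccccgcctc
Ndufa5, chr6:24527691-24527940, minus strand: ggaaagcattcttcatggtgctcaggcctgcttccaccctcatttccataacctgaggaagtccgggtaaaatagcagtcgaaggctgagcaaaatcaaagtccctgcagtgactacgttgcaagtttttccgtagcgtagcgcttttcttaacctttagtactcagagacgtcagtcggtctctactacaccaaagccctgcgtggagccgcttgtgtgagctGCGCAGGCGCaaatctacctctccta
Atp5l, chr9:44920743-44920992, minus strand: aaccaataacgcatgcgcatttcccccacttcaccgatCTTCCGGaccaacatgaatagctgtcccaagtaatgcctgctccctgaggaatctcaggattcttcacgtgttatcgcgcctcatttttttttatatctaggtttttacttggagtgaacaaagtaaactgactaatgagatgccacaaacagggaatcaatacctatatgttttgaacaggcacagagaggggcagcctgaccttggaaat

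The capitals in the Ndufa5 promoter are a match to the motif of NRF1 (GCGC, 1 free base and TGCGC), a factor known for binding promoters of respiratory chain genes, and those in the Atp5l promoter match the ETS motif CCGGAAG of GABP, another such factor. Matches on either strand were counted in windows of 250 bases before to 50 after each start. RefSeq windows were matched by symbol for 73 of the 88 genes, and for 12034 of the 15019 genes tested. The NRF1 motif was in the windows of 17 of the 73 genes (23.3%), against 9.91% of the genes tested. The ETS motif was in 19 of 73 (26.0%), against 17.1%, and the YY1 motif (AA, 1 free base and ATGGCGG) in 6 of 73 (8.22%), against 3.05%. Of the 15 called genes with a promoter window, 1 held the NRF1 motif (Ndufa5), 4 the ETS motif (Atp5e, Atp5l, Ndufs8, Uqcr11) and 1 the YY1 motif (Ndufs7). The Cox7a2l and Ndufaf7 windows held none of the 3. A match is a string of letters and says nothing of binding in these cells.

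The first comparison asks how WT DCs respond to LPS and anti-CD40. With treatment, signals of the oxidative phosphorylation genes were lower in WT DCs for 75 of 88 genes, with a median difference of -0.62, while the median over all genes tested was -0.12 with 8612 of 15019 negative. Ndufaf7, Cox7a2l and Ndufa13 fell, and none of the 88 rose. The 3 called lower compare with 4.63% of all genes tested called lower, and the 0 called higher with 4.94%. For 55 of 88 genes all 3 treated arrays lay below all 3 untreated arrays, a pattern found for 22.1% of all genes, and for 4 genes they lay above, against 14.4%. At an unadjusted limma p under 0.05, 28 of the 88 were lower and 1 was higher, against 2022 and 1431 of the 15019 genes tested. Centring each array on its median took the median of the 88 to -0.42 and left 1 called lower, while 903 of 1338 called genes in all were then higher, against 742 of 1437 without centring. The 6 measured markers of CD8 alpha positive DCs fell in the same comparison, with a median of -2.96.

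**Figure D1:**
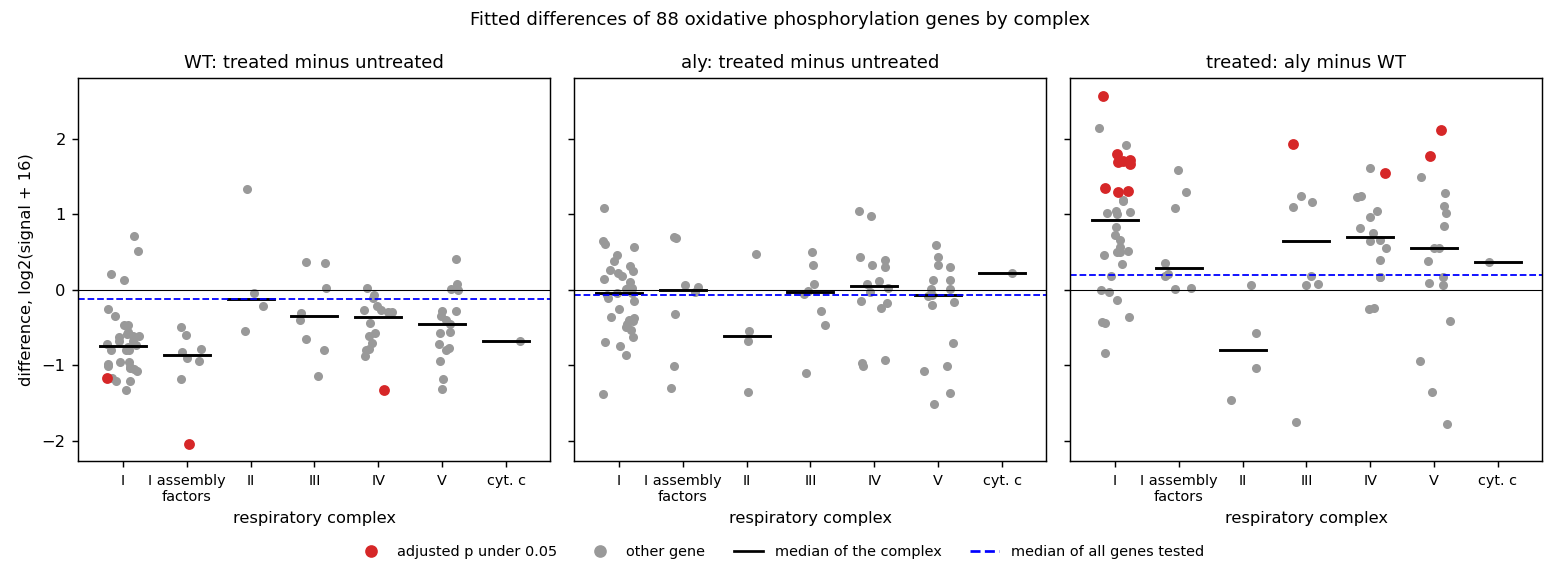
Fitted differences on the log2(signal + 16) scale for each of the 88 genes, by respiratory complex, in 3 comparisons of groups of 3 arrays; red points are genes with an adjusted limma p under 0.05, black bars the median of a complex and the dashed line the median of all genes tested. In WT cells the medians of complexes I, III, IV and V lie below the dashed line, in aly cells those of the same complexes lie near it with complex II below, and between treated aly and treated WT cells they lie above it, again with complex II below.

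Complex I had the largest group of genes and a median difference of -0.74, with 30 of 34 negative and 26 of 34 not overlapping. Among them Ndufa13, an accessory subunit also known as GRIM-19, gave 5436, 5066 and 5512 in untreated and 2312, 2670 and 2149 in treated WT DCs. The groups did not overlap, and the difference was -1.17 ± 0.35 (adjusted p = 0.049). This call was lost when any of 10 of the 12 arrays was left out (adjusted p 0.014 to 0.18 over the 12). Ndufa5, an accessory subunit of the matrix arm, went from 999.6, 876 and 1004 to 490.4, 478 and 218, without overlap, and its difference of -1.33 ± 0.52 did not pass (adjusted p = 0.13). Ndufb5, a subunit of the membrane arm, went from 1291, 1308 and 1266 to 458, 869 and 408, also without overlap (-1.21 ± 0.40, adjusted p = 0.067). The 6 core subunits, which carry the flavin, the iron-sulphur clusters or the quinone site, had a median of -0.62, and the 28 accessory subunits one of -0.79. Ndufa1, the complex I gene of highest mean, gave 6525 to 7878 in untreated and 4253 to 5538 in treated cells, a difference of -0.58 ± 0.32 that did not pass (adjusted p = 0.31). Ndufab1, the mitochondrial acyl carrier protein, differed by -0.71 ± 0.41 (adjusted p = 0.34). Ndufs4 and Ndufb1 were the positive differences of over 0.5 in complex I, at 0.52 and 0.71, with adjusted p of 0.43 and 0.39.

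All 8 complex I assembly factors had lower signals and non-overlapping groups, with a median of -0.86. Ndufaf7, a methyltransferase that modifies a core subunit during assembly, gave 301, 486 and 536 in untreated and 72.5, 204 and 49.3 in treated WT DCs. It fell by 2.04 ± 0.44 on the log2 scale (adjusted p = 0.008), the largest of the 88 in this comparison, and of the 12 arrays left out in turn, WT treated replicate 3 alone ended this call (adjusted p = 0.062). In aly DCs it went from 204, 238 and 340 to 78.8, 94.9 and 111, again without overlap, with a difference of -1.30 ± 0.44 (adjusted p = 0.28). Its signal was thus lower in treated than in untreated DCs on all arrays of both genotypes.

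The 4 complex II genes had a median of -0.13, against -0.12 for all genes, and this median was 0.07 after centring each array on its median. Sdhc, which anchors complex II in the membrane, gave 147, 236 and 94.2 in untreated and 373, 317 and 539.7 in treated WT DCs. The groups did not overlap in the direction opposite to most of the chain, and the difference of 1.33 ± 0.51 did not pass (adjusted p = 0.12). A second Sdhc probe set differed by 0.46. Sdha, the flavoprotein subunit that oxidises succinate, gave 2773 to 3811 untreated and 3021 to 3479 treated (-0.04 ± 0.46, adjusted p = 0.98), Sdhb, the iron-sulphur subunit, differed by -0.54 ± 0.36 (adjusted p = 0.42), and Sdhd, the other anchor, by -0.21 ± 0.49 (adjusted p = 0.87).

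In complex III the median was -0.35 and 0 of 8 genes were called. Uqcr11, a small accessory subunit, went from 522, 669.7 and 515 to 263, 368 and 155 (-1.14 ± 0.50, adjusted p = 0.18). Uqcrb, the complex III gene of highest mean, went from 13341 to 14637 to 10527 to 12209 (-0.30 ± 0.31, adjusted p = 0.64). Uqcrfs1, the Rieske iron-sulphur protein, had a positive difference of 0.36 ± 0.51 (adjusted p = 0.76). Cycs, the carrier between complexes III and IV, went from 5687, 4301 and 6480.0 to 3608, 3711 and 2845, without overlap (-0.68 ± 0.32, adjusted p = 0.22).

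Complex IV had a median of -0.36, or -0.58 without the 5 measured tissue-restricted isoforms, all 11 of the other genes being negative. Cox7a2l, which joins complexes III and IV into supercomplexes, gave 9632, 10279 and 8308 in untreated and 4147, 4315 and 2901 in treated WT DCs. The groups were well apart, and Cox7a2l fell by 1.32 ± 0.35 on the log2 scale (adjusted p = 0.027). Its other 2 probe sets differed by -1.25 and -1.26. The call was lost without any of 5 of the 6 WT arrays, WT treated replicate 2 being the exception (adjusted p 0.0042 to 0.14 over all 12 arrays left out). Cox6b1, of highest mean in complex IV, went from 7538 to 8886 to 4530.1 to 6005 (-0.58 ± 0.38, adjusted p = 0.42), and Ndufa4 from 885 to 1317 to 446 to 829 (-0.79 ± 0.46, adjusted p = 0.33). The isoforms Cox4i2, Cox6a2, Cox6b2, Cox7a1 and Cox8c, known from lung, muscle, heart or testis, had signals of 0.8 to 138 over all arrays and no call in any comparison.

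In complex V the median was -0.46 with 13 of 17 genes negative and 0 called. Atp5e, the epsilon subunit of the catalytic F1 part, went from 2164, 1766 and 1892 to 1057, 838 and 508 (-1.32 ± 0.50, adjusted p = 0.11). Atp5l, a subunit of the membrane part, went from 437, 132 and 303 to 104, 122 and 93.9 (-1.19 ± 0.55, adjusted p = 0.20). Atp5b, the catalytic beta subunit, was higher on all treated arrays, at 2841, 3693 and 2947 against 4026, 4034 and 4517, a difference of 0.41 ± 0.52 that did not pass (adjusted p = 0.73). Atp5g3, of highest mean in complex V, did not differ by more than its error (0.00 ± 0.31, 95% interval -0.66 to 0.67).

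The size of the WT response was not even over the 3 treated arrays. Taking each gene against its own mean in untreated WT cells, the median over the 88 genes was -0.52, -0.42 and -0.84 on WT treated replicates 1, 2 and 3, against 0.05, -0.01 and -0.02 on the untreated arrays. WT treated replicate 3 held the lowest of the 12 values for 42 of the 88 genes. Calls over all genes moved with those of the 88 when an array was left out. Without WT treated replicate 3, 0 of the 88 and 1.05% of all genes were called lower. Without aly treated replicate 1, which enters the error of the fit alone, 15 of the 88 and 11.1% of all genes were called lower, against 3 and 4.63% with all arrays, and without each of WT untreated replicates 1, 2 and 3 and WT treated replicate 1 there was 1 of the 88, with 1.14% to 2.45% of all genes.

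**Figure D2:**
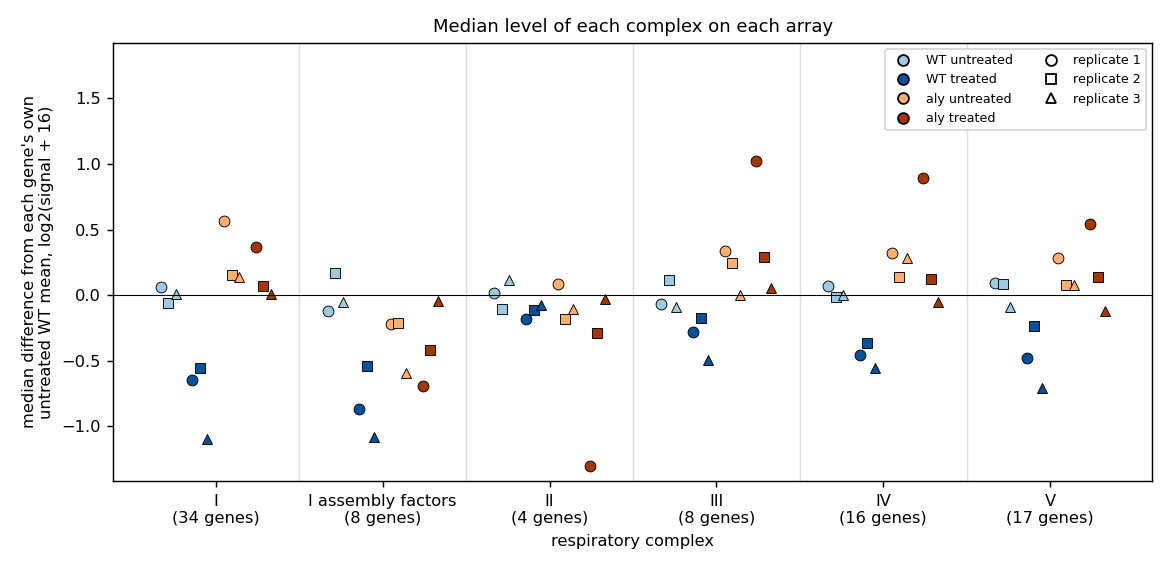
Median over the genes of each complex, on each of the 12 arrays, of the log2(signal + 16) minus that gene's own mean over the 3 untreated WT arrays; colours are groups and marker shapes replicate numbers. Treated WT arrays lie lowest in complexes I, III, IV and V, replicate 3 being the lowest of them, and aly treated replicate 1 stands apart from the other aly arrays in complexes II, III and IV.

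The second comparison sets treated aly against treated WT DCs. In treated cells, signals were higher in aly than in WT DCs for 71 of 88 genes, with a median difference of 0.61 against 0.19 for all genes tested. Called higher were 13 of the 88, 9 of complex I, 1 each of complexes III and IV and 2 of complex V, and 0 were called lower, against 2.72% and 2.64% of all genes tested. After centring each array on its median, which took the median of the 88 genes to 0.36, 3 were called higher and 2 lower, and of all genes 208 of 896 called were higher, against 408 of 804 without centring. For 47 of 88 genes the treated aly arrays all lay above the treated WT arrays, against 14.1% of all genes, and for 6 genes they all lay below, against 10.1%. The treated WT arrays are those of the WT response above, so a low value on them enters both comparisons.

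**Figure D3:**
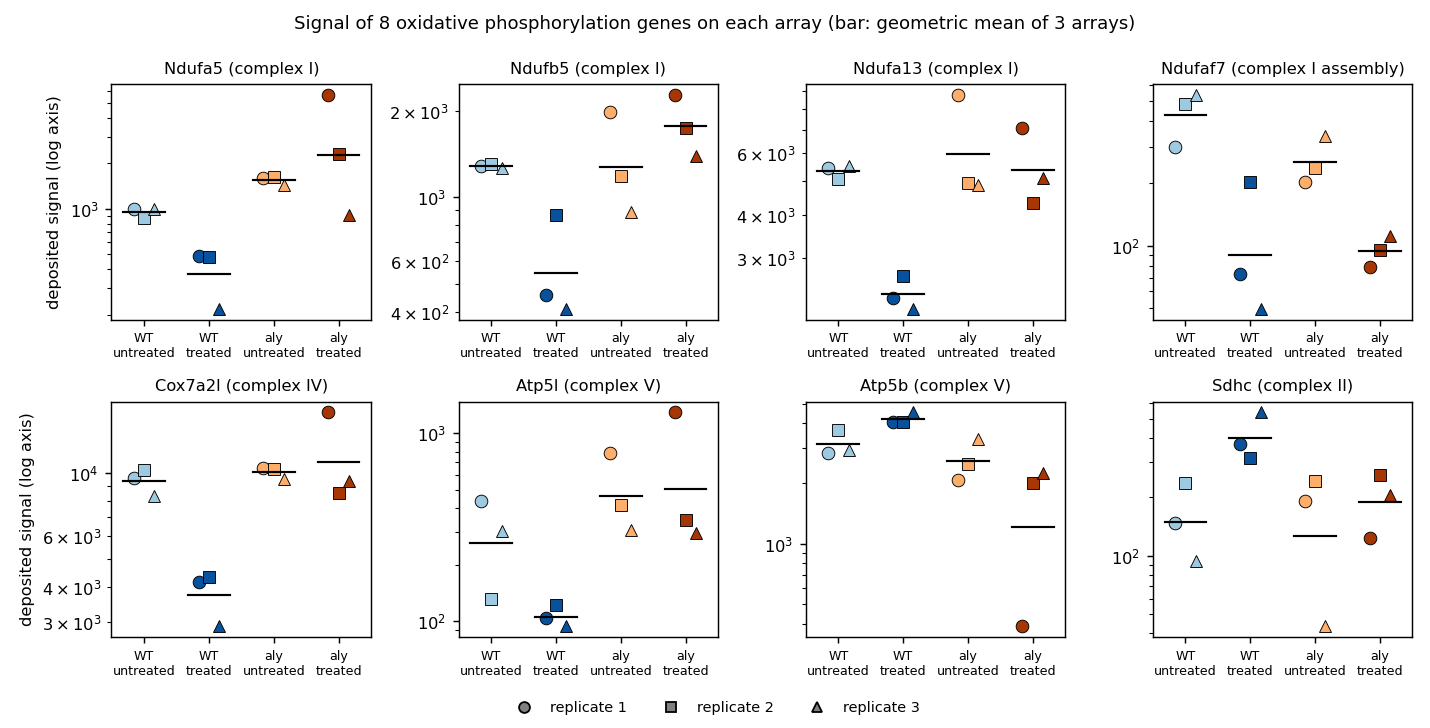
Deposited signal (log axis) of 8 genes on each array; colours are groups, marker shapes replicate numbers and bars the geometric mean of 3 arrays. Ndufa5, Ndufb5, Ndufa13 and Cox7a2l are lowest in treated WT cells, Ndufaf7 is low in treated cells of both genotypes, and Atp5b and Sdhc are highest in treated WT cells.

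The complex I genes had a median of 0.92, with 27 of 34 positive and 22 of 34 not overlapping. Ndufa5 gave 5656, 2305 and 918 in treated aly and 490.4, 478 and 218 in treated WT DCs. The groups did not overlap, the aly arrays spread over a wide range, and Ndufa5 was higher in aly by 2.57 ± 0.52 (5.95-fold, adjusted p = 0.012). Without aly treated replicate 1, its highest array, the difference was 1.92 (adjusted p = 0.013). A second, dimmer Ndufa5 probe set differed by 0.77. Ndufb5 gave 2272, 1744 and 1390.0 in aly against 458, 869 and 408 in WT (1.66 ± 0.40, adjusted p = 0.026). A second, dimmer Ndufb5 probe set differed by 0.67. Its groups overlapped, at 333.5, 887.0 and 740.6 in treated aly against 342.3, 456.4 and 332.6 in treated WT DCs. Ndufb11, a membrane arm subunit encoded on the X chromosome, gave 6449, 4195 and 4199 against 1702, 2143 and 1837 (1.35 ± 0.33, adjusted p = 0.028), and its other 2 probe sets differed by 1.38 and 0.94. Ndufc1 gave 2067, 2414 and 2015 against 938, 1088 and 648 (1.29 ± 0.34, adjusted p = 0.036). These 4 and Cox7a2l were called with or without aly treated replicate 1, but the call of Ndufc1 was lost without any of 9 of the 12 arrays (highest adjusted p 0.21), that of Ndufb11 without any of 4 (0.14) and that of Ndufb5 without any of 3 (0.16).

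The other 5 called complex I genes were Ndufb10, Ndufs8, Ndufv3, Ndufs7 and Ndufa12, the last 2 named after their values were seen. Ndufs8 and Ndufs7 are core subunits with iron-sulphur clusters on the way to quinone, and the others are accessory. Ndufs8 gave 6603, 2491 and 3270 in treated aly against 1177, 1669.9 and 749 in treated WT cells (1.72 ± 0.45, adjusted p = 0.037), and all 5 of its other probe sets were positive, at 0.45 to 1.66. Ndufb10 differed by 1.81 ± 0.46 (adjusted p = 0.032) and Ndufv3 by 1.71 ± 0.45 (adjusted p = 0.038). Ndufs7 and Ndufa12 had adjusted p of 0.049 at differences of 1.69 and 1.31. The call of Ndufa12 was lost without any 1 of the 12 arrays, that of Ndufs7 without any of 11, Ndufv3 of 6, and Ndufb10 and Ndufs8 of 5 each. Aly treated replicate 1 was among these arrays for all 5, with differences of 1.12 to 1.34 and adjusted p of 0.051 to 0.097. Ndufb7 was not called at 2.15 (adjusted p = 0.054), and its treated aly signals of 30403, 4566 and 3222 were uneven, replicate 1 being the highest, without which its difference was 1.16.

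In complex IV, Cox7a2l gave 16344, 8497 and 9378 in treated aly DCs, all above the 4147, 4315 and 2901 of treated WT DCs. It was higher in aly by 1.55 ± 0.35 (2.92-fold, adjusted p = 0.021) and its other 2 probe sets differed by 1.54 and 1.05. Of the 12 arrays left out in turn, WT treated replicate 3 alone ended this call (adjusted p = 0.14) and that of Ndufa5 (adjusted p = 0.10). Both calls were also lost with an offset of 1 in place of 16 (adjusted p of 0.061 and 0.052) and in fits of the treated groups alone (0.14 and 0.11), and that of Cox7a2l with replicates 2 and 3 alone (0.068). Without aly treated replicate 1 the Cox7a2l difference was 1.26 (adjusted p = 0.027). The median of complex IV was 0.71, and 0.97 without the tissue-restricted isoforms. Cox6b1 differed by 1.25 ± 0.38 (adjusted p = 0.068), and Cox5a, with 37140 on aly treated replicate 1 and 8686 and 7338 on the other 2 treated aly arrays, by 1.62 ± 0.49 (adjusted p = 0.064), or 0.88 without replicate 1.

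Uqcr11 of complex III was called (1.93 ± 0.50, adjusted p = 0.035) with 1640.4, 777 and 754 in aly against 263, 368 and 155 in WT cells. Of complex V, Atp5l was called with 1293, 345 and 294 against 104, 122 and 93.9 (2.11 ± 0.55, adjusted p = 0.035) and Atp5e with 6002, 2230 and 1412 against 1057, 838 and 508 (1.78 ± 0.50, adjusted p = 0.049). The calls of Uqcr11 and Atp5l were each lost without any of 7 arrays and that of Atp5e without any of 10. Leaving out aly treated replicate 1, among them for all 3, gave adjusted p of 0.066, 0.067 and 0.099. The medians of complexes III and V were 0.64 and 0.56, and that of complex III was 0.32 without aly treated replicate 1. Cycs gave 3975 to 4584 in aly and 2845 to 3711 in WT cells, without overlap, and its difference of 0.36 ± 0.32 did not pass (adjusted p = 0.52). Other Cycs probe sets differed by 0.67, 0.28 and -0.25, so they did not share a sign.

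Several genes went the other way without passing the test. Atp5b gave 389, 2009 and 2260.2 in treated aly against 4026, 4034 and 4517 in treated WT cells (-1.77 ± 0.52, adjusted p = 0.059), and Uqcrfs1 gave 327.0, 1504 and 1459 against 2779, 2110.0 and 4884 (-1.75 ± 0.51, adjusted p = 0.058). Without aly treated replicate 1, the lowest array for each, the differences were -0.97 and -1.04 with adjusted p of 0.089 and 0.11. Sdhd gave 127, 604 and 505 against 836, 1061 and 1032 (-1.46 ± 0.49, adjusted p = 0.094), while a dimmer second Sdhd probe set differed by 1.03, so the gene has no settled direction. The complex II median was -0.80, and -0.34 without aly treated replicate 1. Sdha went from a difference of -0.57 to one of 0.08 without that array, on which it gave 892 against 3021 to 3785 on the other 5 treated arrays. Sdhc and Sdhb differed by -1.03 ± 0.51 (adjusted p = 0.24) and 0.07 ± 0.36 (adjusted p = 0.93).

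Aly treated replicate 1 held the highest of the 12 values for 37 of the 88 genes and the lowest for 15, so it lay at an extreme for most of them. With it left out the median of the 88 genes was 0.55 and 72 were positive, and 5 were called higher, with 4.09% of all genes. The count ran from 0 without WT treated replicate 3, where 0.0799% of all genes were called higher, to 22, with 3 lower, without aly treated replicate 3, where 4.49% were higher and 5.90% lower. It was 2 without WT treated replicate 1, 3 without aly treated replicate 2, 4 without WT untreated replicate 3, 7 without each of WT treated replicate 2, WT untreated replicate 2 and aly untreated replicate 2, and 8 without WT untreated replicate 1, where 0.706% to 2.03% of all genes were called higher. Red pulp macrophage markers moved with this comparison, with 12 of 13 positive and 6 called higher, and with genotype among untreated cells (13 of 13 positive, 7 called higher). The 6 CD8 alpha positive DC markers were all positive too, with a median of 1.45 and 1 called.

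Without treatment the genotypes gave no call in the chain. The median was 0.19 against 0.10 for all genes tested, 59 of 88 were positive, and 0 were called, against 0.519% of all genes. The untreated aly arrays all lay above the WT arrays for 11 genes, against 12.9% of all genes, and all below for 3, against 9.91%. Ndufa5 gave 1593, 1613 and 1429 in untreated aly against 999.6, 876 and 1004 in untreated WT cells, apart in all arrays, with a difference of 0.68 ± 0.52 (adjusted p = 0.70). Cox7a2l gave 10396, 10329 and 9509.6 against 9632, 10279 and 8308 (0.10 ± 0.35, adjusted p = 0.95), with overlapping groups. Uqcr11, Ndufv3 and Atp5l differed by 0.81, 0.72 and 0.79, with adjusted p of 0.62, 0.62 and 0.66. The largest negative difference was that of Cox6c, a complex IV subunit, at -0.95 ± 0.41 (adjusted p = 0.43), but its second probe set differed by 0.04. Cycs gave 3548 to 3880 in aly against 4301 to 6480.0 in WT cells (-0.54 ± 0.32, adjusted p = 0.61), below WT on all arrays.

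In aly DCs treatment changed none of the 88 genes past the threshold, against 0.486% of all genes. At an unadjusted limma p under 0.05, 1 was higher and 11 were lower, against 846 and 1093 of the 15019 genes tested. The median was -0.03 against -0.07 for all genes, 42 were positive and 46 negative, and 3 genes lay above and 15 below on all arrays, against 6.07% and 8.52% of all genes. Without aly treated replicate 1 the median was -0.21 with 71 of 88 negative, against a median of -0.10 for all genes, so the even split of signs rested on that array. The lowest differences were those of Atp5c1, the gamma subunit of the ATP synthase (-1.51, adjusted p = 0.34), and Ndufs1, the largest complex I subunit (-1.38 ± 0.46, adjusted p = 0.27). Ndufs1 gave 607, 536 and 1379 untreated and 142, 351 and 455 treated. Sdhd differed by -1.35 ± 0.49 (adjusted p = 0.31), Uqcrfs1 by -1.10 ± 0.51 (adjusted p = 0.38) and Atp5g2, a c-ring subunit, by -1.01 ± 0.37 (adjusted p = 0.31). The dimmer second Sdhd probe set differed by 1.12, in the opposite direction. Cox6c gave 2555, 1877 and 1001 untreated and 4385, 3823 and 2583 treated, above on all arrays (1.05 ± 0.41, adjusted p = 0.34), but its second probe set differed by -0.63. Without aly treated replicate 1 the differences were -0.78 for Atp5c1, -0.91 for Ndufs1, -0.68 for Sdhd and -0.39 for Uqcrfs1, and -1.07 for Atp5g2 and 0.89 for Cox6c.

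**Figure D4:**
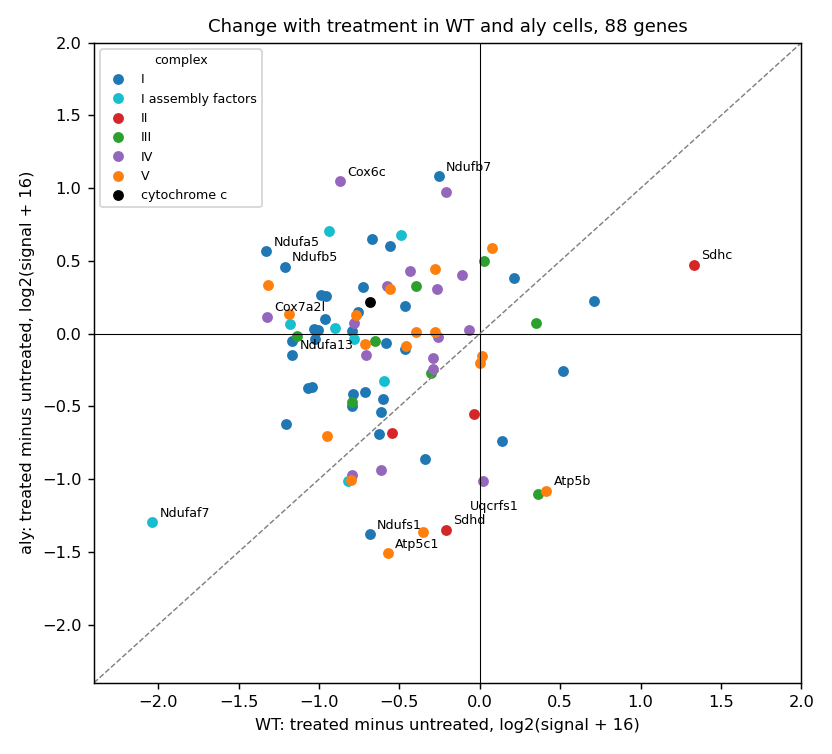
Difference between treated and untreated cells on the log2(signal + 16) scale in WT (horizontal) and aly (vertical) cells for the 88 genes, coloured by complex; the 2 comparisons share no arrays, and the dashed line marks equal responses. Most points, 66 of 88, lie above the dashed line, 39 are negative in both genotypes and 36 are negative in WT and positive in aly cells.

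The response was more negative in WT than in aly DCs for 66 of the 88 genes (75.0%), against 52.5% of all genes tested. The signs were negative in both genotypes for 39 genes, negative in WT and positive in aly for 36, positive in both for 6 and positive in WT and negative in aly for 7. In the test of the difference itself, the interaction of genotype and treatment, the median was 0.54 against 0.05 for all genes. None of the 88 was called by limma, against 0.153% of all genes, and all of those called were negative. At an unadjusted limma p under 0.05, 8 of the 88 were higher and 0 lower, against 529 and 666 of the 15019 genes tested. Cox6c had an interaction of 1.92 (adjusted p = 0.35), Ndufa5 of 1.89 (0.52), Ndufb5 of 1.67 (0.40), Atp5e of 1.65 (0.58) and Cox7a2l of 1.44 (0.43). Second probe sets of Cox6c, Ndufa5 and Ndufb5 had smaller interactions of 0.14, 0.03 and 0.71, and the other 2 of Cox7a2l had 1.10 and 0.52. A different response of aly and WT DCs was thus not shown for any single gene of the chain. Without aly treated replicate 1 the median interaction was 0.36 and 59 of 88 were positive.

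Other genes of mitochondrial metabolism were read from fixed lists, none of which had a call in the aly response or between untreated genotypes. Of the citric acid cycle enzymes, 16 of 17 were measured, with a median of -0.74 in the WT response and 14 of 16 negative. Idh2, the mitochondrial NADP-dependent isocitrate dehydrogenase, went from 1749.6, 1433 and 876 to 84.0, 550.4 and 67.4 and fell by 2.97 ± 0.63 on the log2 scale (adjusted p = 0.007), as the single call. Between treated aly and treated WT cells 0 of 16 were called and the median was -0.02. Of the respiratory chain subunits outside the rule 1 of 14 was measured, Cyc1 (cytochrome c1 of complex III), with differences of -0.37 ± 0.47 (adjusted p = 0.73) and -1.08 ± 0.47 (adjusted p = 0.18) in these 2 comparisons.

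Of 40 further assembly factors 36 were measured, and in the WT response 1 rose and 4 fell. Sdhaf1, which helps insert the iron-sulphur clusters of complex II, went from 183, 311 and 185 to 592, 791 and 1116 (1.80 ± 0.41, adjusted p = 0.011). Uqcc3, Uqcc2, Nubpl and Surf1, assembly factors of complexes III, III, I and IV, fell by 1.57, 1.26, 1.41 and 1.48 (adjusted p 0.025 to 0.037). Between treated genotypes Cox16 and Uqcc2 were higher in aly by 1.79 ± 0.40 and 1.24 ± 0.35 (adjusted p of 0.019 and 0.049).

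All 14 regulators of mitochondrial biogenesis were measured. In the WT response Gabpb1, a subunit of GABP, rose from 22.4, 74.5 and 48.5 to 185, 144 and 217 (1.69 ± 0.41, adjusted p = 0.016), and Tfb1m, a methyltransferase of mitochondrial ribosomal RNA, fell by 1.71 ± 0.42 (adjusted p = 0.018). Between treated genotypes Polrmt, the mitochondrial RNA polymerase, gave 209.7, 174 and 237 in aly against 45.8, 57.1 and 30.2 in WT cells (1.90 ± 0.53, adjusted p = 0.047). The coactivator Ppargc1b was higher (1.90 ± 0.51, adjusted p = 0.043) and Ppargc1a lower (-1.53 ± 0.42, adjusted p = 0.045) in aly, both at low signals of 2.4 to 141 over the 12 arrays.

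Of 12 carriers and uncoupling proteins 10 were measured. The citrate carrier Slc25a1 rose in WT cells from 295, 144 and 155 to 795, 545 and 814 (1.82 ± 0.42, adjusted p = 0.013). Between treated genotypes all 10 were negative, with a median of -0.71, and Mpc1, of the mitochondrial pyruvate carrier, was called lower in aly (-1.93 ± 0.46, adjusted p = 0.024) with 96.8, 101 and 234 against 457, 578 and 635.

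Of 15 enzymes that act on the chain in activated myeloid cells 13 were measured, and 2 rose and 2 fell in the WT response. Acod1, which makes the complex II inhibitor itaconate, went from 2.9, 3.2 and 6.2 to 3010, 301 and 354 (5.14 ± 1.14, adjusted p = 0.0094) and in aly cells from 14.0, 13.5 and 61.0 to 15606, 721 and 184 (5.01 ± 1.14, adjusted p = 0.071). Gpd2, the mitochondrial glycerol phosphate dehydrogenase, rose by 1.31 ± 0.36 (adjusted p = 0.031). Pdk1, which restrains pyruvate entry into the cycle, fell by 2.58 ± 0.56 (adjusted p = 0.0081), from 684, 387 and 468 to 69.1, 116 and 40.6. Higd1a, a regulator of complex IV, fell by 1.30 ± 0.38 in WT cells (adjusted p = 0.042) and was higher in treated aly than treated WT cells by 1.66 ± 0.38 (adjusted p = 0.022). Etfb, the beta subunit of the electron transfer flavoprotein, gave 2162, 2942 and 1057 in treated aly against 328, 396 and 258 in treated WT cells (2.49 ± 0.41, adjusted p = 0.0041), a call kept without each array in turn. Its partners Etfa and Etfdh were lower in aly, by -1.52 ± 0.42 (adjusted p = 0.046) and -1.81 ± 0.45 (adjusted p = 0.028). For the other calls of these lists, results with arrays left out are not given here. Without WT treated replicate 3, 12 of all genes were called higher and 68 lower between treated genotypes, against 408 and 396 with all arrays.

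For 50 of the 88 genes more than 1 probe set passed the filter, and all probe sets of a gene had the same sign for 40 of 50 in the WT response, 34 of 50 between treated genotypes, 29 of 50 between untreated genotypes and 20 of 50 in the aly response. Probe sets ending in _s_at or _x_at can match several transcripts, and those of Ndufaf7, Ndufa13, Ndufs8, Ndufa12 and Atp5e are of this kind.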

How the data were processed

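The authors deposited a table of 45101 probe sets by 12 arrays, whose values are an intensity on a linear scale. The 2% trimmed mean of every array is 150.001. Software and background correction: not given in the sources used here. Labelling had a second in vitro transcription, per the labels' protocols. Probe sets were named through the platform's gene table, and those with 1 symbol were used. Probe sets were kept where at least 3 arrays put them past that array's own 40th percentile, the one of highest mean standing for each of 15019 genes. log2(signal + 16) was fitted with limma 3.58.1 (R 4.3.3), 1 mean a group, 8 residual degrees of freedom, and Benjamini-Hochberg adjustment. The limma step was tested on simulated data. Genes named are the called members (10 of smallest p a direction), the highest-mean and smallest-p member of each complex a comparison, a set of fixed interest (Cycs, the Sdh genes, Ndufa4, Ndufab1, Cox7a2l and tissue-restricted isoforms) and 2 genes a pathway list. Others named (Ndufs7, Ndufa12, Ndufb7, Ndufb1, Ndufs4, Cox5a, Atp5b, Atp5c1, Surf1, Gpd2, Etfa, Etfdh) were chosen after their values were seen. The members and lists were chosen with earlier results of these data known. Python 3.11.15, pandas 2.3.3, numpy 2.4.6 and matplotlib 3.10.9 served for tables and figures. The alternatives were other offsets, centring, quantile normalization, filters, probe set choice, blocks, array weights and arrays left out.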

Additional observations from a re-analysis of the deposited data

How the results depend on the processing

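The median of the 88 genes kept its sign in the WT response (-0.69 to -0.42) and between treated genotypes (0.36 to 0.77) under each of the 26 alternatives, and relative to the median of all genes it was -0.56 to -0.37 and 0.35 to 0.59. Counts of called genes moved, and so did the calls over all genes, given as a percentage after each count. In the WT response 3 were called lower (4.63%), against 1 with an offset of 1 (2.30%), 13 with 64 (5.97%), 1 with median centring (2.90%), 7 with a filter at the 60th percentile (8.81%), 7 with the mean over probe sets (4.78%), 5 with replicate 1 against 2 and 3 as a block (6.07%), 17 and 1 higher with the groups compared alone (11.3% and 8.03%), 24 and 1 higher with array weights (13.5% and 9.06%), and 0 to 15 leaving out each array (1.05% to 11.1%). Between treated genotypes 13 were called higher (2.72%) and 0 lower (2.64%), against 0 higher with an offset of 1 (0.732%), 20 with 64 (3.08%), 3 and 2 lower with centring (1.38% and 4.58%), 2 lower with the 60th percentile filter (4.95%), 20 and 2 lower with replicate 1 against 2 and 3 as a block (4.08% and 3.88%), 1 higher with replicates 2 and 3 alone (2.98%), 0 with the groups compared alone (0.0133%), 29 and 2 lower with array weights (11.5% and 7.90%), and 0 to 22 higher (0.0799% to 4.49%) and 0 to 3 lower (0.453% to 5.90%) leaving out each array. The complex I median between treated genotypes was 0.67 with centring, and that of complex II -0.21 with the mean over probe sets and -1.03 to -0.34 leaving out each array, which took that of complex III to 0.32 to 0.84. Chosen after seeing the data, leaving out all _s_at and _x_at probe sets gave medians of 0.20 in complex III and 0.089 in complex V, and omitting aly treated replicate 1 with aly untreated replicate 3 gave 19 lower and 1 higher in the WT response (12.4% and 8.57%), -0.30 as the aly response and -0.34 in complex II. The cause of these moves was not tested.

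The replicate numbers were not taken as a pairing, because not every same-numbered pair had a correlation over 0.1 in its deviations from group means and the labels name no shared day or litter. Whether they mark shared batches is not settled: the median correlation was 0.145, 0.114 and 0.053 for numbers 1, 2 and 3 (range -0.028 to 0.305) against -0.072 for different numbers, and 9 of 12 arrays correlated best with their own number. Red pulp macrophage sums of numbers 1, 2 and 3 were 18279, 3989 and 2575 in untreated and 16434, 4333 and 2606 in treated WT DCs. In aly DCs they were 57238, 45620 and 73882 untreated and 61001, 48343 and 31828 treated. With the replicate block 4 were called lower in the WT response (5.57%), and 19 higher and 2 lower between treated genotypes (3.82% and 3.58%). With 3 arrays a group the median standard error was 0.435 on the log2 scale, which limits what could be called. Signals near the low end of an array carry no presence call here.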

Other observations

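Probe sets that name an oxidative phosphorylation gene together with another gene were left out of the comparisons, and 10 such probe sets exist. The probe set shared by Ndufs6 and Ndufs6b gave 1390.2, 1166 and 906 in untreated WT, 765, 657 and 402 in treated WT, 1752, 1318 and 958 in untreated aly and 2865, 1578 and 1217 in treated aly DCs, with differences of -0.93 in the WT response and 1.56 between treated genotypes, both without overlap. The probe set of Ndufs5 and its pseudogene differed by -0.74 and 0.67 in the same comparisons and that of Ndufab1 and its pseudogene by -0.92 and 1.01. The brighter probe set of Ndufa11 and Ndufa11b differed by 0.05 and 0.65. For Ndufb4 the single-symbol probe set was dim, whereas the 2 shared with Ndufb4b and Ndufb4c had means of 911 and 308 and differed by -0.08 and -0.21 in the WT response and by -0.44 and -0.81 between treated genotypes. The Ndufb4 value among the 34 complex I genes therefore rests on a dim probe set.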
